A study of Mus musculus with 9 samples.

Results

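A set of 10 genes of the MHC class I pathway was examined in mouse mammary tumors with and without the stress-inducible chaperone Hsp72. They were chosen by symbol for their roles, out of 55403 gene rows in the count table: the heavy chains H2-K1, H2-D1 and H2-T23, the light chain B2m, the peptide transporter genes Tap1 and Tap2, the transporter-bound chaperone gene Tapbp, the immunoproteasome subunit genes Psmb8 and Psmb9, and the regulator Nlrc5. All 10 were found in the table and all 10 passed the filter on low counts, which left 14665 genes to be tested. The KO group comprised 5 tumors from mice of genotype Hspa1a/Hspa1b-/-, aged 120 to 125 days, and the WT group comprised 4 tumors from Hspa1a/Hspa1b+/+ mice, aged 122 to 132 days. All 9 samples came from female mice on a C57BL/6 background that carried the MUC1.Tg human mucin transgene together with MMTV-PyMT. MMTV-PyMT is a transgene that expresses polyoma middle T from a mouse mammary tumor virus promoter, active mainly in mammary epithelium. The question posed was which transcripts depend on Hsp72. Tumors were dissociated with collagenase and trypsin before RNA extraction, so each library held the tumor cells together with the stroma and leukocytes that survived dissociation. Where a gene's RNA differs between such bulk libraries, fewer cells of a type and less RNA per cell cannot be told apart. Since no animal numbers are labelled for the 9 samples, p-values cover only the variation among these libraries, which may in part be technical.

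Class I molecules display peptides made inside the cell to CD8 T cells and natural killer cells. Peptides are cut by the proteasome, whose catalytic subunits are exchanged for interferon-inducible ones in the immunoproteasome, and are pumped into the endoplasmic reticulum by the Tap1 and Tap2 transporter. There tapasin, the product of Tapbp, holds the transporter next to an empty heavy chain paired with beta-2 microglobulin until a peptide binds. Nlrc5 activates transcription of most genes of this pathway, and interferon gamma raises them together. In mammary tumors the pathway is known for deciding how visible tumor cells are to T cells.

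Promoter sequences are shown because H2-K1, H2-D1 and B2m hold a pair of sequence elements known from promoters of both MHC classes. RefSeq windows on GRCm38.p6, running from 250 bases before to 50 bases after a start, were at hand for 8 of the 10 genes, and not for Tap2 and Nlrc5. The letters TGACG, the core of the X2 box, followed after a gap of 15 to 25 bases by ATTGG, the core of the Y box, were found in the windows of H2-K1, H2-D1 and B2m, on the coding strand and each time with a gap of 20 bases. Both strands were searched, and 143 of 32851 windows (0.435%) held the pair, 31 of them (0.0944%) with a gap of exactly 20. Among other genes described here it was found in H2-M3 (gap of 20), H2-Q7 (19), the class II gene H2-Aa (21) and, on the opposite strand, Jak1 (18). The kappa B letters, GGG and CCC with 5 letters between, were found in 14.0% of windows and in those of 5 of the genes, and the interferon element letters, TTTC followed after 2 letters by TTTC (3.44% of windows) or by TTC (7.52%), in those of 4. The letters to be searched were chosen after the promoters had been read, and a match is a description of the sequence. Capitals mark the kappa B and interferon element matches and, where both are present at that spacing, X2 and Y, in the windows of H2-K1 (chr17:34000284-34000583, minus strand, 1 of 2 overlapping windows), H2-D1 (chr17:35262844-35263143, plus strand), B2m (chr2:122147437-122147736, plus strand), H2-T23 (chr17:36032652-36032951, minus strand) and Tap1 (chr17:34187306-34187605, plus strand), each written 5′ to 3′.
H2-K1: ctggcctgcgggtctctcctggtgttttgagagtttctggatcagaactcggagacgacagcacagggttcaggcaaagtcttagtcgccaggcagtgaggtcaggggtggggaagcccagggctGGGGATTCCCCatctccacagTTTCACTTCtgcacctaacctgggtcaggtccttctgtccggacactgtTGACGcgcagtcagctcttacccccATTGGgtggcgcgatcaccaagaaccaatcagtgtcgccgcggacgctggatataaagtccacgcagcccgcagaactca
H2-D1: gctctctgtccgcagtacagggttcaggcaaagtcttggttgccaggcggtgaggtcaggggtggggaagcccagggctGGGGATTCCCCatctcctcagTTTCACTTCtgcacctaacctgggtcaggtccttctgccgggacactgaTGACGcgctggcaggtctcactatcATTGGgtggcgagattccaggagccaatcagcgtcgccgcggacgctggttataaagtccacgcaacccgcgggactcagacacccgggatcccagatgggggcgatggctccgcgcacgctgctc
B2m: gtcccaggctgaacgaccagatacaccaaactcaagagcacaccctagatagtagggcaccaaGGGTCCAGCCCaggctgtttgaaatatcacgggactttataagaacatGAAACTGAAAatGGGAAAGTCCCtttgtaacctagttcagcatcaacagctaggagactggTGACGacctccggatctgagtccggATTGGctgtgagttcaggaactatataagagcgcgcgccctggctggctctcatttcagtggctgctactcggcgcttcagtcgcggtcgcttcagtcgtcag
H2-T23: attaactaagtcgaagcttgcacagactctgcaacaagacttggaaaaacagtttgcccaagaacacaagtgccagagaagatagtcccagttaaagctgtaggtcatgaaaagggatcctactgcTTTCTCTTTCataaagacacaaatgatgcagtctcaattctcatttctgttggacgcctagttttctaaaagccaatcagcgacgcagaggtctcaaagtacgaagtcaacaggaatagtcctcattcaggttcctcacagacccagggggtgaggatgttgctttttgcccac
Tap1: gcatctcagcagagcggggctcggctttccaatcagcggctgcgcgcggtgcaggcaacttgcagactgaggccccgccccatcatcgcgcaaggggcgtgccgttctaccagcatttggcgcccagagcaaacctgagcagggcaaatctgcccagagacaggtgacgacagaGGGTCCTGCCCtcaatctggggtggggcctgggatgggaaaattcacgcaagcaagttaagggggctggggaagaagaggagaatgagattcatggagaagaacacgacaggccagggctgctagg
The H2-K1 and H2-D1 windows matched in order as well as in content, with a kappa B site, then an interferon element, then X2 and Y. In B2m the interferon element, in the reverse orientation, preceded the second kappa B site. H2-T23 had the interferon element without the kappa B letters or the pair. Tap1 and Psmb9 are transcribed away from each other, their windows overlap, and the single kappa B match shown for Tap1 is the same one that the Psmb9 window (chr17:34187281-34187580, minus strand) holds.

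The libraries carried 4410399 to 6221181 counts in genes, from 11500920 to 19136317 fragments. The targeted genes fitted the labels: Hspa1b had 6 counts over the KO libraries and 1043 over the WT libraries, and Hspa1a had 23 over the KO libraries and 139 over the WT libraries. WT 1 and WT 4 stood apart in milk protein RNA, with summed casein levels of 15359 and 11166 CPM (counts scaled to library size), against 2222 to 7857 CPM in the KO libraries and 2961 and 4753 CPM in WT 2 and WT 3. KO 5 had the highest summed level of 17 T and natural killer cell markers, 54.9 CPM, against 7.88 to 18.4 CPM in the other KO libraries and 18.1 to 34.1 CPM in WT. Of the 14665 genes, 13 (0.0886%) had an adjusted p under 0.05 in edgeR's quasi-likelihood test and are termed called. An unadjusted p under 0.05 was reached by 7.95% of genes, and 2.7% had groups that did not overlap.

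None of the 10 class I genes passed the test, and for all 10 the KO and WT libraries overlapped. In all, 3 had positive and 7 negative log2 fold changes, with a median of -0.06, against -0.0001 over all genes tested. The 95% interval held 0 for 9 of the 10. The exception, H2-T23, was the 1 gene of 10 with an unadjusted p under 0.05, where 7.95% of all genes had one. DESeq2 and limma-voom also called 0 of the 10, with 1 and 0 genes at an unadjusted p under 0.05. Of the genes, 8 lie on chromosome 17, between 291 and 1058 kb from Hspa1a and Hspa1b. Their number called can be read against the interval itself, with 119 genes tested from Tapbp to H2-M2. The called ones were Hspa1b and Hspa1a, lower in KO, and Hspa1l, higher in KO, where 0.0886% of all genes were called.

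**Figure D1:**
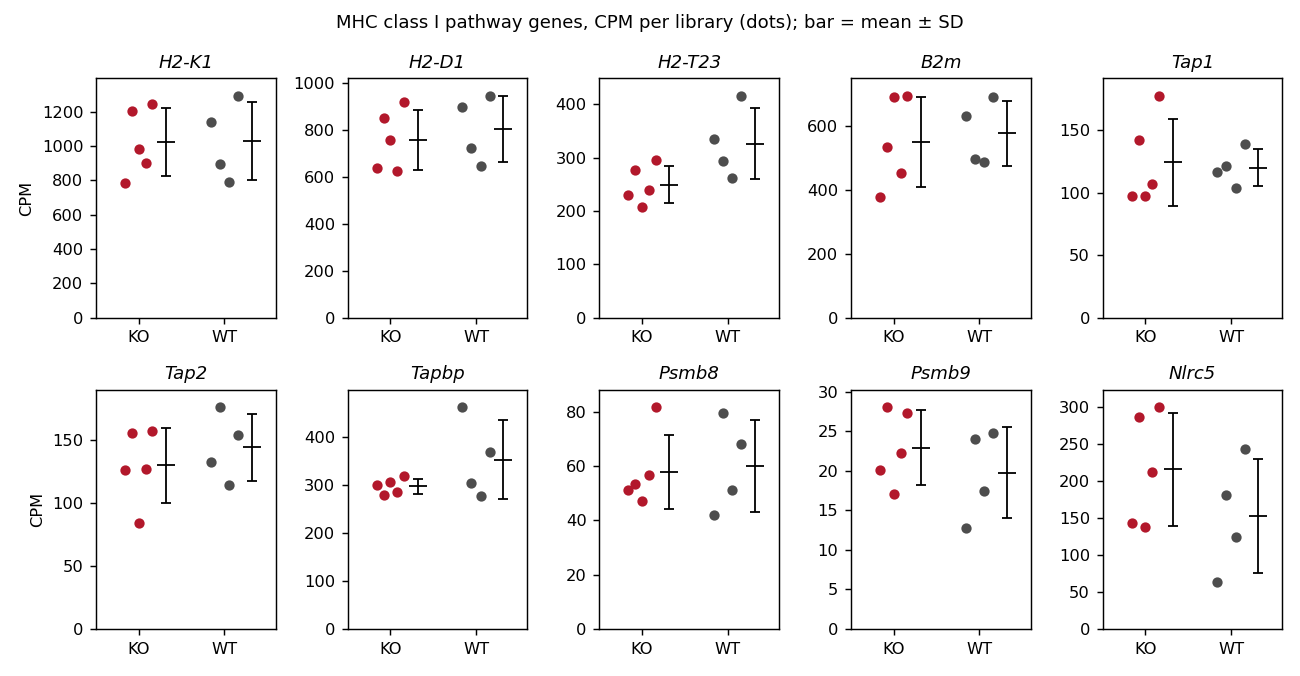
CPM of the 10 class I pathway genes in each library (dots; y axis CPM from 0), KO left and WT right, with the mean and SD (bars; n = 5 KO and 4 WT). In every panel the ranges of the groups overlap; H2-T23 averaged 249.5 CPM in KO and 326 CPM in WT.

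Set per kilobase of exon, so that genes can be ordered, the light chain was the most abundant. The length used merges all annotated exons of a gene and can exceed that of its transcripts, so the order can depend on it. For Tap1 it was 5476 bases, while the longest protein-coding transcript held 2904 stretches of 50 bases. B2m stood at 653 ± 137 CPM per kb over the 9 libraries (SD), above H2-K1 at 349 ± 67.4 and H2-D1 at 301 ± 49.5 CPM per kb. H2-K1 exceeded H2-D1 in 9 of 9 libraries although their ranges overlapped. H2-T23 (98.2 ± 21.7 CPM per kb) and Tapbp (88.8 ± 16.3 CPM per kb) formed the next level and were not separated, since H2-T23 was the higher in 6 of 9 libraries. Tap2 (36.1 ± 7.31 CPM per kb) exceeded Tap1 (22.4 ± 4.81 CPM per kb) in 9 of 9 on this scale. In CPM without division by length, Tap1 was the higher in KO 3 (97.5 against 84.4 CPM) and KO 5 (177 against 157 CPM). Tap1, Nlrc5 (22.1 ± 9.30 CPM per kb) and Psmb8 (17.4 ± 4.19 CPM per kb) had overlapping ranges, and Psmb9 was the lowest at 5.89 ± 1.40 CPM per kb.

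H2-K1 (ENSMUSG00000061232.16, chromosome 17, 33996017 to 34000347, minus strand) and H2-D1 (ENSMUSG00000073411.12, chromosome 17, 35262730 to 35267499, plus strand) encode the classical heavy chains that present peptides to CD8 T cells. H2-K1 had 782, 1206, 979.6, 898 and 1243 CPM in KO 1 to 5, against 1141, 895, 789 and 1290.3 CPM in WT 1 to 4. Both groups spanned nearly the same range, with means of 1022 ± 198 CPM in KO and 1029 ± 228 CPM in WT (SD, n = 5 KO and 4 WT). The log2 fold change was -0.01 ± 0.19 (SE; edgeR adjusted p = 0.994), a fold of 0.993 with a 95% interval of 0.743 to 1.33. H2-D1 had 637, 849.9, 757, 625 and 917 CPM in KO, against 899, 722, 648 and 942 CPM in WT. The same libraries were high and low as for H2-K1: KO 2, KO 5, WT 1 and WT 4 stood above the other 5. The H2-D1 log2 fold change was -0.08 ± 0.17 (SE; edgeR adjusted p = 0.916), with a fold of 0.943 (95% interval 0.731 to 1.22). Of the 50-base stretches of their transcripts, 8.79% for H2-K1 and 14.3% for H2-D1 occur in other genes, and fragments lying wholly in those cannot be assigned to 1 gene. All positions are on GRCm38.

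H2-T23 (ENSMUSG00000067212.8, chromosome 17, 36029773 to 36032855, minus strand) encodes Qa-1, a nonclassical heavy chain that displays leader peptides of classical heavy chains to the inhibitory receptor CD94/NKG2A. It had 229, 276, 208, 238 and 295 CPM in KO 1 to 5, against 335, 293, 262 and 415 CPM in WT 1 to 4. KO 1, KO 3 and KO 4 lay below every WT library, and KO 2 and KO 5 lay above WT 3. The log2 fold change was -0.39 ± 0.16 (SE), a fold of 0.765 with a 95% interval of 0.600 to 0.975. The unadjusted p of 0.0335 became an edgeR adjusted p of 0.616 over all genes. Leaving out WT 4 gave -0.26 for H2-T23, and leaving out WT 1 as well gave -0.16. Shared 50-base stretches made up 29.8% of this transcript, the largest number of them (183 of 424) with H2-T-ps.

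B2m (ENSMUSG00000060802.8, chromosome 2, 122147686 to 122153083, plus strand) encodes beta-2 microglobulin, the light chain common to all class I molecules, and lies on another chromosome than the heavy chains. It had 378, 533, 691, 453 and 692 CPM in KO 1 to 5, against 630.3, 497, 485 and 690.5 CPM in WT 1 to 4. KO 1 and KO 4 were the lowest of the 9, while KO 3 and KO 5 equalled the highest WT library to within 2 CPM. The log2 fold change was -0.07 ± 0.20 (SE; edgeR adjusted p = 0.950), with a fold of 0.955 (95% interval 0.703 to 1.30). None of the 50-base stretches of B2m occur in another gene.

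Tap1 (ENSMUSG00000037321.17, chromosome 17, 34187553 to 34197225, plus strand) and Tap2 (ENSMUSG00000024339.12, chromosome 17, 34203527 to 34216321, plus strand) encode the paired chains of the peptide transporter. Tap1 had 97.5, 142, 97.5, 107 and 177 CPM in KO, against 117, 121, 104 and 139 CPM in WT. The WT libraries lay inside the KO range, whose upper end was set by KO 5. Its log2 fold change was 0.05 ± 0.19 (SE; edgeR adjusted p = 0.958; fold 1.04, 95% interval 0.775 to 1.38). Tap2 had 127, 156, 84.4, 127 and 157 CPM in KO, against 133, 176, 114 and 155 CPM in WT. KO 3 was the lowest library for Tap2 and the other KO libraries lay within the WT range. The Tap2 log2 fold change was -0.15 ± 0.19 (SE; edgeR adjusted p = 0.857; fold 0.901, 95% interval 0.674 to 1.21).

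Tapbp (ENSMUSG00000024308.15, chromosome 17, 33915899 to 33929292, plus strand) varied least within the KO group, at 299, 279, 306, 285 and 318 CPM, against 462, 305, 277 and 369 CPM in WT. WT 1 and WT 4 lay above every KO library, and WT 2 and WT 3 lay among or below them. The log2 fold change was -0.25 ± 0.15 (SE; edgeR adjusted p = 0.691), a fold of 0.843 (95% interval 0.669 to 1.06). The Tapbp value was -0.09 when WT 1 was left out and 0.03 when WT 4 was left out as well. On its opposite strand 904 exon bases are shared with the antisense transcript Gm19412, and whether counting used strand is not stated in the labels or notes.

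Psmb8 (ENSMUSG00000024338.15, chromosome 17, 34197721 to 34201454, plus strand) encodes the interferon-inducible chymotrypsin-like subunit of the immunoproteasome. It had 51.0, 53.3, 47.3, 56.7 and 81.6 CPM in KO, against 41.9, 79.4, 51.0 and 68.0 CPM in WT. KO 5 stood above the other KO libraries, and WT 1 was the lowest of all 9. Its log2 fold change was -0.05 ± 0.21 (SE; edgeR adjusted p = 0.962; fold 0.965, 95% interval 0.700 to 1.33). Psmb9 (ENSMUSG00000096727.3, chromosome 17, 34181987 to 34187764, minus strand), whose product takes the place of the Psmb6 subunit in the immunoproteasome, had 20.1, 28.0, 17.1, 22.2 and 27.4 CPM in KO, against 12.8, 24.04, 17.4 and 24.8 CPM in WT. WT 1 was again the lowest, and the other 3 WT libraries lay within the KO range. The Psmb9 log2 fold change was 0.22 ± 0.22 (SE; edgeR adjusted p = 0.821; fold 1.16, 95% interval 0.829 to 1.63), with 0.06 without WT 1, 0.32 without WT 2 and 0.34 without WT 4. Psmb9 and Tap1 share 212 exon bases on opposite strands.

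Nlrc5 (ENSMUSG00000074151.13, chromosome 8, 94434356 to 94527272, plus strand), the transactivator of class I genes, had the widest interval. It had 144, 287, 137, 212 and 299.6 CPM in KO 1 to 5, against 63.3, 182, 125 and 243 CPM in WT 1 to 4. KO 2 and KO 5 lay above every WT library, and WT 1 and WT 3 below every KO library. The log2 fold change was 0.49 ± 0.36 (SE; edgeR adjusted p = 0.726), a fold of 1.41 with a 95% interval of 0.813 to 2.44. Leaving out WT 1 gave 0.24 and leaving out WT 4 gave 0.80 for Nlrc5. Of the 10 genes it varied most between libraries of 1 genotype.

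Beyond genotype, most of the 10 genes varied together from library to library. With genotype means removed, 40 of 45 pairs correlated positively over the 9 libraries, with a median Pearson r of 0.538 and a range of -0.42 to 0.976. H2-K1 and H2-D1, which have 109 of the 50-base stretches in common, had r = 0.967. B2m, which shares no stretch with any gene, had r = 0.798 with H2-K1 and 0.828 with H2-D1. Genes without the X2 and Y pair in their windows ranged widely in r with H2-K1 and H2-D1. H2-T23, with 29.8% of its stretches occurring in other genes, had 0.874 and 0.812, and Tap1 had 0.799 and 0.775. Tapbp had 0.565 and 0.627, Psmb9 0.343 and 0.247, and Psmb8 0.250 and 0.213. The most negative r values were those of Tapbp with Psmb9 (-0.420), Nlrc5 (-0.420) and Psmb8 (-0.275). The closest pair was Psmb9 and Nlrc5, from different chromosomes, with r = 0.976. These are descriptions over 9 libraries, in each of which depth and cell composition are common to all genes, and they carry no test.

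**Figure D2:**
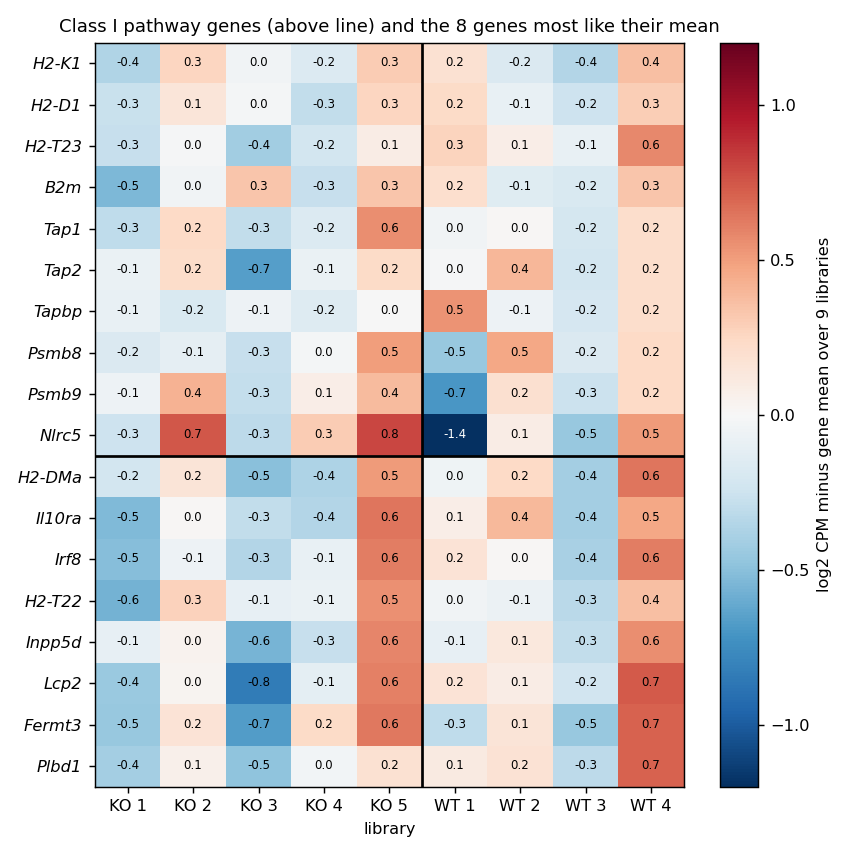
log2 CPM of each gene minus its mean over the 9 libraries (colour scale and cell text), KO libraries left and WT libraries right of the vertical line; rows above the horizontal line are the 10 class I pathway genes and rows below are the 8 genes most like their mean. KO 5 and WT 4 are high and KO 1 and WT 3 are low in most rows.

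Averaged as z-scores over the 10 genes, the class I level was 0.98 in KO 5 and 0.40 in KO 2, and -0.44, -0.60 and -0.78 in KO 4, KO 3 and KO 1. In WT it was 0.98 in WT 4, 0.19 in WT 2, -0.01 in WT 1 and -0.73 in WT 3. Both genotypes thus held a high and a low library. Among 10317 other genes at an average log2 CPM of 3 or more, the 8 most like this profile were H2-DMa (Pearson r = 0.954, Spearman rho = 0.85), Il10ra (0.940, 0.933), Irf8 (0.939, 0.933), H2-T22 (0.922, 0.983), Inpp5d (0.908, 0.800), Lcp2 (0.893, 0.867), Fermt3 (0.881, 0.833) and Plbd1 (0.878, 0.883). H2-T22 is a class I heavy chain, H2-DMa a chaperone of class II peptide exchange, Irf8 a myeloid and B cell transcription factor, and Il10ra, Inpp5d, Lcp2 and Fermt3 are genes best known from blood cells. Without KO 5 and WT 4, the 2 libraries farthest from the median of the profile, Pearson r was between 0.690 and 0.882 for these 8. They had been picked for high r over all 9 libraries, so the libraries kept are no separate check. Summed pan-leukocyte markers (9 of 9 detected) stood at 246, 243, 219, 269 and 398 CPM in KO 1 to 5, and 435, 317, 340 and 403 CPM in WT 1 to 4. Their order was not that of the class I level: WT 1 was the highest library, and WT 2 lay below WT 3. The part of leukocyte RNA in the class I levels was not tested.

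Partner subunits were also set against each other as log2 ratios of counts per kb, 0.5 being added to each count, with an exact two-sided permutation test over all assignments of the libraries, whose smallest p is 0.00794, adjusted over 6 ratios. H2-K1 over B2m averaged -0.86 ± 0.26 in KO and -0.95 ± 0.09 in WT (SD; exact adjusted p = 0.881), and H2-D1 over B2m -1.10 ± 0.24 in KO and -1.11 ± 0.06 in WT (exact adjusted p = 0.976). Tap1 over Tap2 averaged -0.61 ± 0.26 in KO and -0.79 ± 0.19 in WT (exact adjusted p = 0.492). The balance of heavy to light chain and of the transporter chains thus differed by less than the spread between libraries. Psmb9 over its constitutive counterpart Psmb6 averaged -2.20 ± 0.32 in KO and -2.65 ± 0.52 in WT (exact adjusted p = 0.452). Psmb10, the third inducible subunit gene, over Psmb7 averaged -0.10 ± 0.34 in KO and -0.16 ± 0.47 in WT (exact adjusted p = 0.976).

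Psmb8 over its constitutive counterpart Psmb5 was the only ratio of the 6 that passed. It was 0.96, 1.38, 1.03, 1.46 and 1.45 in KO 1 to 5, against -0.18, 0.48, 0.15 and 0.90 in WT 1 to 4. The groups did not overlap, and the difference of 0.92 had the smallest p possible (exact p = 0.00794, adjusted p = 0.0476). For Psmb8 itself the 95% interval of the fold, 0.700 to 1.33, held 1. Psmb5 (ENSMUSG00000022193.7, chromosome 14, 54614119 to 54618022) had 6.89, 5.38, 6.08, 5.42 and 7.87 CPM in KO, against 12.6, 15.05, 12.1 and 9.62 CPM in WT, with non-overlapping groups (2.7% of all genes). Its log2 fold change was -0.96 ± 0.20 (SE), not called by edgeR (adjusted p = 0.222) but called by DESeq2 (adjusted p = 0.00665). Gm3375, a processed pseudogene of Psmb5 on chromosome 7 (3181093 to 3181888) chosen after its values were seen, had 166 counts in KO, at 5.05 to 6.40 CPM a library, and 0 in WT, where 0 counts allow up to 0.499 to 0.698 CPM. Of 795 aligned bases 787 are identical (99.0%), and 49.4% of the 50-base stretches of Psmb5 occur in the pseudogene too. Psmb5 and Gm3375 summed to 12.1 ± 1.24 CPM in KO and 12.3 ± 2.22 CPM in WT (SD). With Gm3375 added to Psmb5, an alternative chosen after seeing the data, the ratio averaged 0.32 ± 0.24 in KO and 0.34 ± 0.46 in WT, a difference of -0.018 (exact adjusted p = 0.976). The level of either gene alone is therefore uncertain, and the higher Psmb8 to Psmb5 ratio held for the deposited Psmb5 counts and not for the sum.

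**Figure D3:**
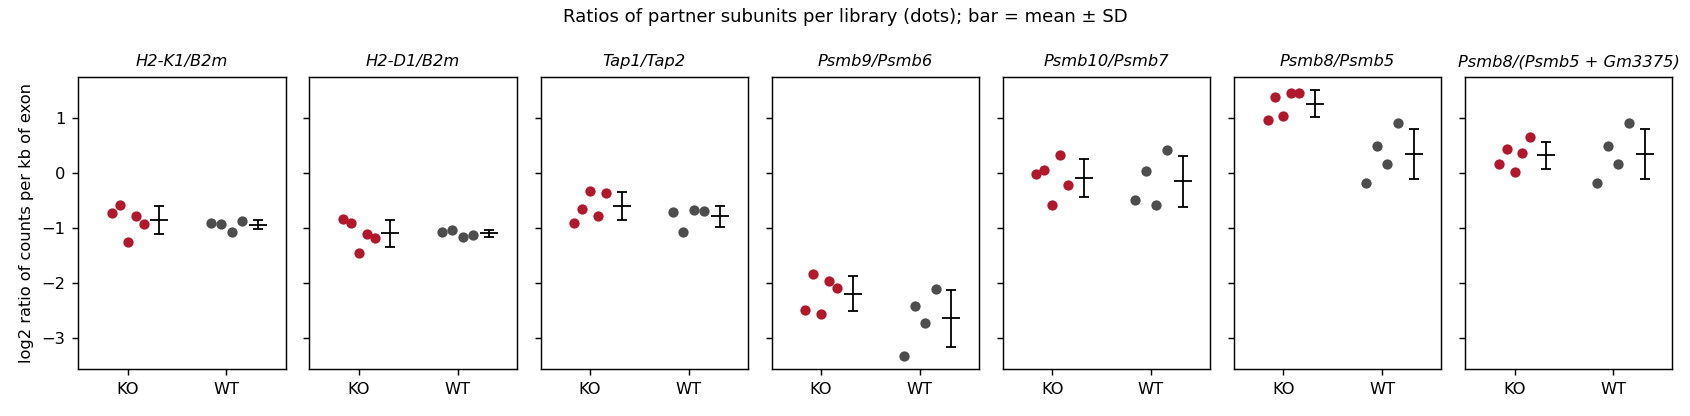
log2 ratio of counts per kb of exon for the 6 pairs of partner subunits, and for Psmb8 over Psmb5 with Gm3375 added, in each library (dots), KO left and WT right, with mean and SD (bars; n = 5 KO and 4 WT). Psmb8 over Psmb5 separates the groups (0.96 to 1.46 in KO, -0.18 to 0.90 in WT), and the same ratio with Gm3375 added does not.

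Fold changes were more spread among the other heavy chain genes of the H2 complex. Of 22 listed, 10 passed the count filter and edgeR called 0, with 7 positive and 3 negative log2 fold changes and a median of 0.35. Of these, 3 had an unadjusted p under 0.05 toward higher values in KO (3.36% of all genes) and 1 toward lower (4.59% of all genes). H2-Q6 had 130.2, 327, 175, 193 and 242 CPM in KO, against 58.1, 128, 101 and 195 CPM in WT. Its log2 fold change was 0.83 ± 0.34 (SE; adjusted p in edgeR 0.616). Its neighbour H2-Q7, which codes for a lipid-anchored Qa-2 heavy chain, averaged 142 ± 53.8 CPM in KO and 81.9 ± 42.5 CPM in WT (SD; log2 fold change 0.80 ± 0.34, edgeR adjusted p = 0.616). WT 4 lay within the KO range for both, and WT 1 to WT 3 lay below every KO library. H2-T10, annotated as a polymorphic pseudogene and known for a product bound by gamma delta T cells, averaged 19.5 ± 3.93 CPM in KO and 11.7 ± 6.52 CPM in WT (log2 fold change 0.74 ± 0.33, edgeR adjusted p = 0.621). Without WT 4 the log2 fold changes of H2-Q6, H2-Q7 and H2-T10 were 1.15, 1.21 and 1.13, and without WT 1 they were 0.60, 0.67 and 0.49. Reads are hard to place among these genes, since 35.0%, 34.9% and 42.9% of the 50-base stretches of H2-Q6, H2-Q7 and H2-T10 occur in other genes. H2-M2 stood at 1.97, 1.30, 0.657, 1.44 and 1.37 CPM in KO, against 5.81, 3.76, 1.83 and 5.15 CPM in WT. These values rest on few counts, 38 over the KO libraries and 77 over the WT libraries, with 4 to 25 in a library. Its log2 fold change was -1.59 ± 0.39 (SE; adjusted p in edgeR 0.381). For H2-M2 a single KO library, KO 1, exceeded the lowest WT library.

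**Figure D4:**
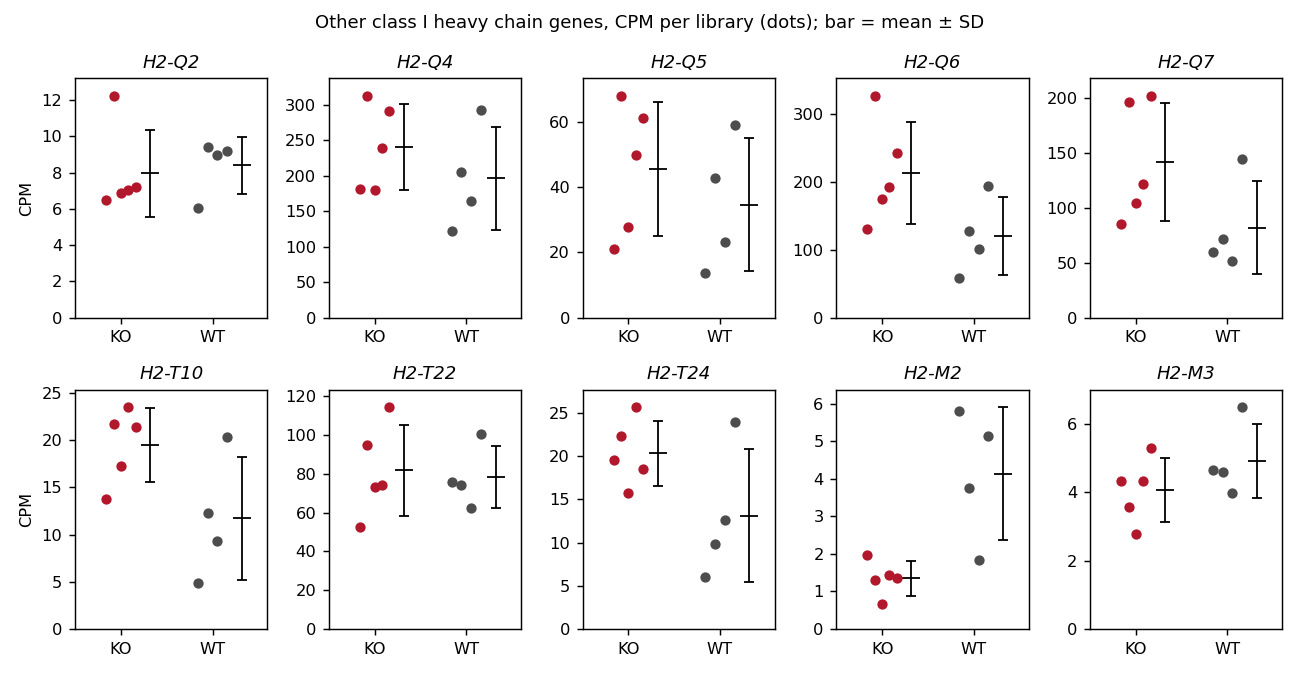
CPM of the 10 other class I heavy chain genes that passed the count filter in each library (dots; y axis CPM from 0), KO left and WT right, with mean and SD (bars; n = 5 KO and 4 WT). H2-Q6 averaged 213 CPM in KO and 120.4 CPM in WT, H2-M2 1.35 CPM in KO and 4.14 CPM in WT, and no gene shown was called.

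Genes that act around the 10 in the pathway were not called either. Among 12 genes of peptide trimming, loading and heavy chain folding, 2 were positive and 10 negative (median -0.30 on the log2 scale). Their summed level was 6891 CPM in WT 1, while WT 2 to WT 4 (3086, 3495 and 3152 CPM) lay within the KO range of 2654 to 4188 CPM. The chaperone calreticulin (Calr) was the 1 of 12 with an unadjusted p under 0.05, near the 7.95% of all genes, at 614, 559, 686, 598 and 649 CPM in KO, against 1418, 645, 723 and 751 CPM in WT. Its log2 fold change was -0.51 ± 0.22 (SE; edgeR adjusted p = 0.616) and -0.19 without WT 1, which stood above the other 8 libraries. All 5 other interferon-inducible proteasome genes were negative, with a median of -0.12, and the assembly factor gene Pomp had the lowest p (log2 fold change -0.28 ± 0.12, edgeR adjusted p = 0.616). Of the 5 genes for constitutive subunits and the nuclear activator, 4 were negative (median -0.21), among them Psmb5 above. Of 7 class I-like genes 4 were tested, 2 positive and 2 negative, with a median of -0.04.

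Regulators and interferon-induced genes had fold changes in both directions. Of 25 regulators of class I genes and their interferon input, 24 were tested, 9 positive and 15 negative (median -0.05 on the log2 scale) and none at an unadjusted p under 0.05. The lowest p-values among them were those of the histone methyltransferase gene Ezh2 (log2 fold change 0.34 ± 0.18, adjusted p in edgeR 0.647) and the interferon gamma receptor gene Ifngr1 (-0.40 ± 0.22, adjusted p in edgeR 0.663). Interferon gamma itself (Ifng, chosen after its values were seen) had 3 counts over the KO libraries and 1 over the WT libraries. Of 24 interferon-induced genes tested, 17 were positive and 7 negative (median 0.11). The proapoptotic factor gene Xaf1 (log2 fold change 0.43 ± 0.16, edgeR adjusted p = 0.616) and the virus tether gene Bst2 (-0.45 ± 0.20, edgeR adjusted p = 0.626) had an unadjusted p under 0.05, in opposite directions; 2 of 24 is near the 7.95% of all genes.

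Class II genes, which present peptides from outside the cell and are made by antigen-presenting cells, stood further from 0 in the median than the class I genes. Single genes did not all do so: H2-DMa was at -0.19, while the class I genes reached from -0.39 to 0.49 on the log2 scale. Log2 fold changes of the 6 tested of 9 were all negative (median -0.81), and 4 had an unadjusted p under 0.05 (4.59% of all genes in this direction), with 0 called. The chain genes H2-Aa and H2-Eb1 had log2 fold changes of -0.90 ± 0.30 and -0.90 ± 0.32, H2-Ab1 of -0.78 ± 0.29 and the invariant chain gene Cd74 of -0.84 ± 0.34 (SE; edgeR adjusted p = 0.616 for each). H2-Aa had 84.3, 111, 64.0, 75.6 and 121 CPM in KO, against 181, 156, 76.8 and 266 CPM in WT, so that WT 3 lay within the KO range. Without WT 4 the values of H2-Aa and Cd74 were -0.60 and -0.55, and without WT 1 and WT 4 they were -0.35 and -0.27. Whether the class II and class I differences themselves differ was not tested.

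**Figure D5:**
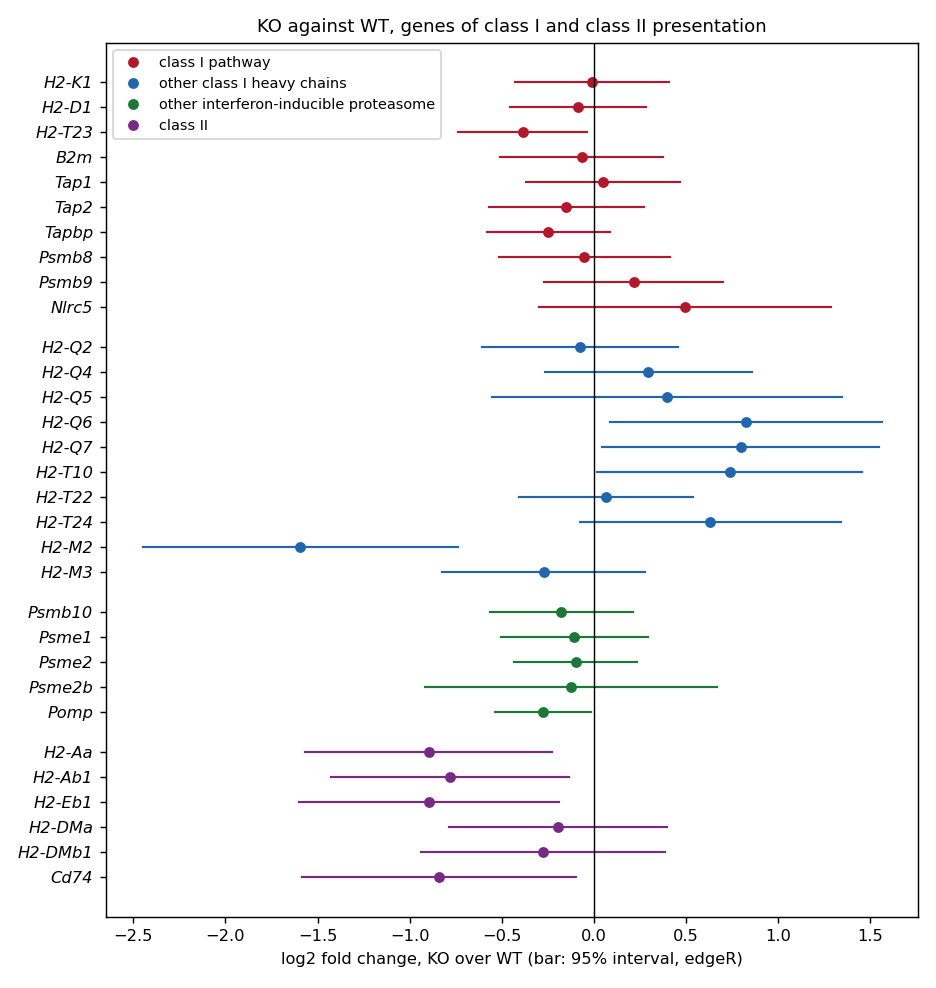
log2 fold change, KO over WT, with its 95% interval from edgeR (x axis) for the 10 class I pathway genes, other class I heavy chains, other interferon-inducible proteasome genes and class II genes (y axis, coloured by group). The intervals of 9 of the 10 pathway genes hold 0, and 4 of the 6 class II intervals lie below it.

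Markers of the cell types in the tumors mostly had negative fold changes, and edgeR called none of them. At an unadjusted p under 0.05 lay 2 of 9 pan-leukocyte, 2 of 14 macrophage, 4 of 10 endothelial, 6 of 10 fibroblast, 4 of 10 epithelial and 1 of 5 tested T and natural killer cell markers (Gzma, a granzyme), all lower in KO, where 4.59% of all genes lay. All 9 pan-leukocyte markers had negative log2 fold changes (median -0.50), as had 14 of 14 macrophage markers (median -0.62), 10 of 10 endothelial markers (median -0.78), 9 of 10 fibroblast markers (median -0.78) and 10 of 10 tumor epithelium markers (median -0.49). Summed macrophage markers stood at 276 to 715 CPM in KO and 529 to 855 CPM in WT, and summed fibroblast markers at 249 to 485 CPM in KO and 600.5 to 851 CPM in WT. Endothelial markers summed to 30.4 to 77.8 CPM in KO and 57.1 to 170 CPM in WT. The high end was that of WT 1, while WT 2 to WT 4 (57.1, 71.1 and 77.7 CPM) lay within the KO range. Epithelial markers summed to 3493 to 4134 CPM in KO and 3667 to 7173 CPM in WT. Of these sums that of the fibroblast markers alone did not overlap between KO and WT. T and natural killer cell markers were near the limit of detection: 5 of 17 passed the filter, all negative with a median of -0.15, and the T cell receptor chain gene Trac, chosen after its values were seen, had 19 counts in KO and 24 in WT. B cell markers summed to 2.30 to 10.4 CPM in KO and 6.06 to 13.9 CPM in WT, with 1 of 6 tested (Ighm, -0.39). The 10 class I genes summed to 2765 to 4209 CPM in KO and 2872 to 4337 CPM in WT. The part of cell composition in the class I values was not tested.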

How the data were processed

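RNA sequencing of 5 KO and 4 WT tumors was analysed. The tools named are STAR 2.5.4a, Trimmomatic 0.36 and FastQC 0.11.5, with GRCm38 as the genome, per the submitters' processing notes. The authors deposited unnormalized counts per gene and library; the layout is that of STAR's gene counts, and the annotation release and strand option were not found in the labels. Reads that fit several genes are left out of such counts, which lowers genes with near copies. Rows naming no gene stayed out of library sizes: unmapped (11.0% to 27.1% of fragments), multimapped (5.50% to 9.53%), no feature (34.0% to 50.4%) and ambiguous (0.971% to 1.23%). Of 55401 mouse identifiers, 55141 were matched to a symbol; positions are from the GRCm38 annotation.

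Groups came from the labels. KO was compared with WT in edgeR 4.0.16 (R 4.3.3; glmQLFit, glmQLFTest, TMM, filterByExpr, genotype as the only term), two-sided, with Benjamini-Hochberg adjustment over all 14665 genes and a threshold of 0.05. CPM uses totals over the tested genes times TMM factors; correlations use log2 CPM with a prior count of 2. A count of 0 allows up to 3 counts, counting error only. Genes named were the 10, the targeted genes, up to 4 per list with the smallest unadjusted p, partners in 6 ratios and the 8 genes of most like profile; others are marked as chosen later. The 10 genes, lists and tests were chosen with earlier results of these data known. Alternatives were DESeq2 1.42.0, limma-voom (limma 3.58.1), other scaling and filters, age or library number as a term, and libraries left out; percent unmapped as a covariate and Gm3375 added to Psmb5 were chosen after seeing the data. The tests were tested on simulated data.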

Additional observations from a re-analysis of the deposited data

Results flagged for a closer look

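Of 32 groups of 4 or 5 libraries examined for a library far from its own group, 2 held one, a number that chance alone can give, since it marks about 5% of groups. Psmb8 in KO 5 stood at 81.6 CPM, against 56.7 CPM in the nearest KO library, a gap of 0.726 of the range of the group. KO 5 also had the highest T and natural killer cell marker sum (54.9 CPM), and the part of such cells in its Psmb8 level was not tested. The log2 ratio of Tap1 to Tap2 was -1.07 in WT 2, against -0.72 in the nearest WT library, a gap of 0.889 of the range. Without WT 2 the difference in this ratio between KO and WT was 0.09, against 0.18 with it, and neither passed.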

How the results depend on the processing

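None of the 10 class I genes was called under any of 19 alternatives. Their median log2 fold change of -0.06 lay between -0.16 and 0.14 and was positive under 3 of them, 0.017 without KO 1, 0.016 without WT 4 and 0.14 without WT 1 and WT 4. H2-T23, Psmb9 and Nlrc5 kept their sign under all 19, and the other 7 changed sign under at least 1. For H2-T23 the log2 fold change ranged from -0.47 to -0.16 and the adjusted p from 0.292 to 0.953. The 13 genes called over the whole table became 68 with DESeq2, 29 with no count filter and 6 with a mean count of at least 50, and 6 to 13 when 1 library was left out; the cause was not tested. The difference in the Psmb8 to Psmb5 log2 ratio was -0.018 with Gm3375 added, 0.94 without WT 1 and WT 4 (exact adjusted p = 0.286) and 0.74 to 1.10 when 1 library was left out. In those subsets the exact test could not go below an adjusted p of 0.286, 0.107 (without 1 WT library) or 0.171 (without 1 KO library). The library numbers were not shown to pair the samples: deviations of same-numbered libraries correlated at -0.0239, 0.383, 0.111 and 0.377. With the replicate block, which left out KO 5, 9 genes and 0 of the 10 were called, and the median was -0.16. Leaving out KO 5 without the block also gave a median of -0.16. With 5 against 4 libraries, the 95% interval of the fold reached from 0.813 to 2.44 for Nlrc5, the widest. The interval of Tapbp, the narrowest on the log2 scale, reached from 0.669 to 1.06. Nlrc5 was not the gene of lowest depth: Psmb9, down to 55 counts in a library, had an interval of 0.829 to 1.63.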
